A study of Rattus norvegicus with 16 samples.

Results

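The change of gene expression at 100 µg of benzalkonium chloride (BKC) was compared between rat adrenal gland and pancreas, as the difference of 2 log2 changes for each gene: BKC100 minus vehicle in the adrenal gland, minus BKC100 minus vehicle in the pancreas. A positive difference means that the change was more upward in the adrenal gland. The comparison used 8 of the 16 libraries of the series, in 4 groups of 2: adrenal gland with vehicle or BKC100, and pancreas with vehicle or BKC100. Genes entered with a mean of at least 1 FPKM (fragments scaled by transcript length and library size) over the 4 libraries of each organ, which left 5280 of the 45777 genes in the tables. That mean was reached by 12664 genes in the adrenal gland and by 5610 in the pancreas. The mean was taken over vehicle and BKC100 together, so a gene low in 1 group could enter through the other.

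BKC is a quaternary ammonium disinfectant. The animals were male Sprague-Dawley rats labelled wildtype, received at 6 weeks of age and dosed from 7 weeks. Each received 10 instillations into the trachea, 3 days apart, of vehicle or of 100 µg of BKC per rat. The rats were killed on day 31, 24 h after their final instillation. Both adrenal glands of an animal were pooled, so cortex and medulla were measured together. The sources used here do not give the composition of the vehicle. Labels number the 2 libraries of a group, and they do not say outright that each came from a separate animal. P-values therefore measure the spread between these libraries, taken jointly over both organs for each gene. The names of 1 adrenal and 1 pancreas BKC100 library both carry the number 1, so the organs may share a rat. The names do not say what the number counts.

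The organs were what their labels said. In the 4 adrenal libraries Cyp11a1, the enzyme of the first step of steroid synthesis, lay between 4934 and 5960 FPKM after scaling, and Th, the rate-limiting enzyme of catecholamine synthesis in the medulla, between 30.6 and 34.7; both were at 0 in the pancreas. Prss1, a trypsinogen of acinar cells, lay between 15489 and 20871 in the pancreas and at most at 0.383 in the adrenal gland. The column deposited for heart BKC100 replicate 2 was equal to adrenal BKC100 replicate 2 in 45777 of 45777 genes. Star, which carries cholesterol into adrenal mitochondria, stood at 6630 scaled FPKM there, within the adrenal range of 2069 to 10805, and the column was used here as an adrenal library. The sum of FPKM was 692837 and 689355 in adrenal vehicle but 399629 and 391123 in adrenal BKC100, while the pancreas libraries ranged from 486061 to 603063. Read depth is unknown.

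Library names followed 2 styles, and the styles did not fall alike on the organs. Adrenal vehicle and adrenal BKC50 libraries carry names that begin with V or B and end in _A, whereas adrenal BKC100 libraries begin with B100 and end in _AG. Pancreas vehicle and BKC100 libraries all carry the second style. The sources used here do not say what the style records. Within the adrenal gland, and so within the difference between organs, dose and naming style cannot be told apart. For that reason 2 further values stand beside the results, both without a test: adrenal BKC50 minus vehicle, which is within the first style and shares its vehicle libraries with the BKC100 change, and the difference between second-style and first-style heart libraries, with 1 vehicle and 1 BKC50 library in each style.

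As background, metallothioneins are small cysteine-rich proteins that bind zinc, copper and cadmium. Their genes are switched on by metals through the factor MTF1, which binds metal response elements in the promoter, and by glucocorticoids. The adrenal cortex makes those glucocorticoids from cholesterol, which it takes up from lipoproteins or synthesises, and pancreatic acinar cells make and secrete digestive enzymes.

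The most negative differences were those of the metallothionein genes Mt2A and Mt1, and their promoters are shown for that reason. Each is given as the 250 bases before the annotated start in the RefSeq table of assembly GRCr8, on the strand of the gene. Capitals mark matches to TGCACNC or TGCGCNC, the 2 spellings used here for the core of the metal response element, searched on both strands. Matches on the other strand appear as the reverse complement of these letters.
Mt2A, chr19:10838709-10838958, minus strand: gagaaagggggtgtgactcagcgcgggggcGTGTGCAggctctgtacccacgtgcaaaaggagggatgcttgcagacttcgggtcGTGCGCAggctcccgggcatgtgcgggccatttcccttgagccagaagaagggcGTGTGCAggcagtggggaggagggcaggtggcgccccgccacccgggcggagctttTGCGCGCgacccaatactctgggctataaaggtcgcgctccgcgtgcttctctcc
Mt1, chr19:10832976-10833225, minus strand: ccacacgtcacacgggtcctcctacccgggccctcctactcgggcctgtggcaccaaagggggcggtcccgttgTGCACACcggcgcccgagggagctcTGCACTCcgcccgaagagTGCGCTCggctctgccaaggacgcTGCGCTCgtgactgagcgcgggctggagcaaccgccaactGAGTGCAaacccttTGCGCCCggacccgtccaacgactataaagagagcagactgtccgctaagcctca

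The Mt2A promoter holds 4 such matches and the Mt1 promoter 6. Of 33469 rat promoters in the table, with 250 bases before the start searched in each, 20.6% hold at least 1 match, 0.266% at least 4 and 0.0269% at least 6. Among the promoters of tested genes the share with at least 1 match was 31.8%. Of the 27 genes called below 17 had a promoter in the table, and 5 of these held a match. The matches describe letters, and binding was not measured.

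On the log2(scaled FPKM + 1) scale, adrenal changes were larger than pancreas changes. The median size of the change, as an absolute log2 value, was 0.299 in the adrenal gland and 0.112 in the pancreas. Its size was at least 1 in 319 genes in the adrenal gland against 20 in the pancreas, counted without a test. This scale understates changes of low genes, and its part in the smaller pancreas values was not tested. With a pseudocount of 0.1 in place of 1, genes with an unadjusted limma p under 0.05 went from 1798 to 1546 in the adrenal gland. In the pancreas they went from 154 to 279. The SD of a library's deviation from its group mean was 0.265 for adrenal vehicle, 0.338 for adrenal BKC100, 0.266 for pancreas vehicle and 0.213 for pancreas BKC100. Changes in the 2 organs were not correlated across genes, with a Pearson r of -0.03 and a Spearman rho of -0.02 over 5280 genes, which are not independent replicates. Since 0 genes passed the limma test in the pancreas, these values cannot tell whether the organs responded alike. Signs were opposite in 51.0% of genes.

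In the limma test of the difference, 27 of 5280 genes passed a Benjamini-Hochberg adjusted p of 0.05 (0.511%), 17 with a positive difference (0.322%) and 10 with a negative one (0.189%). An unadjusted p under 0.05 was reached by 1160 genes. Within the adrenal gland 785 genes passed (14.9%), of which 486 rose (9.2%) and 299 fell (5.66%). Within the pancreas 0 passed (0%), 154 had an unadjusted p under 0.05 and the smallest adjusted p was 0.433. The fit took 1 spread per gene over both organs, so p-values and intervals of each organ carry the spread of the other. With library weights set for each organ, 156 genes passed in the adrenal gland and 5 in the pancreas. In the pancreas 413 genes then had an unadjusted limma p under 0.05. Without these weights, all 27 genes with a called difference had also passed in the adrenal gland. In 12 of them the pancreas change was smaller than 0.1 on the log2 scale. In all 27 the 4 adrenal library-pair changes lay apart from the 4 pancreas ones, as they did in 40.5% of tested genes. Each of the 27 lost its call in at least 1 of the 8 fits that left out 1 library, and kept it in 1 to 7 of them. Of the 785 adrenal calls 758 did not pass for the difference, so for those genes a response of the adrenal gland alone was not shown. Over all 785, the sign in the pancreas was that in the adrenal gland for 392.

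**Figure D1:**
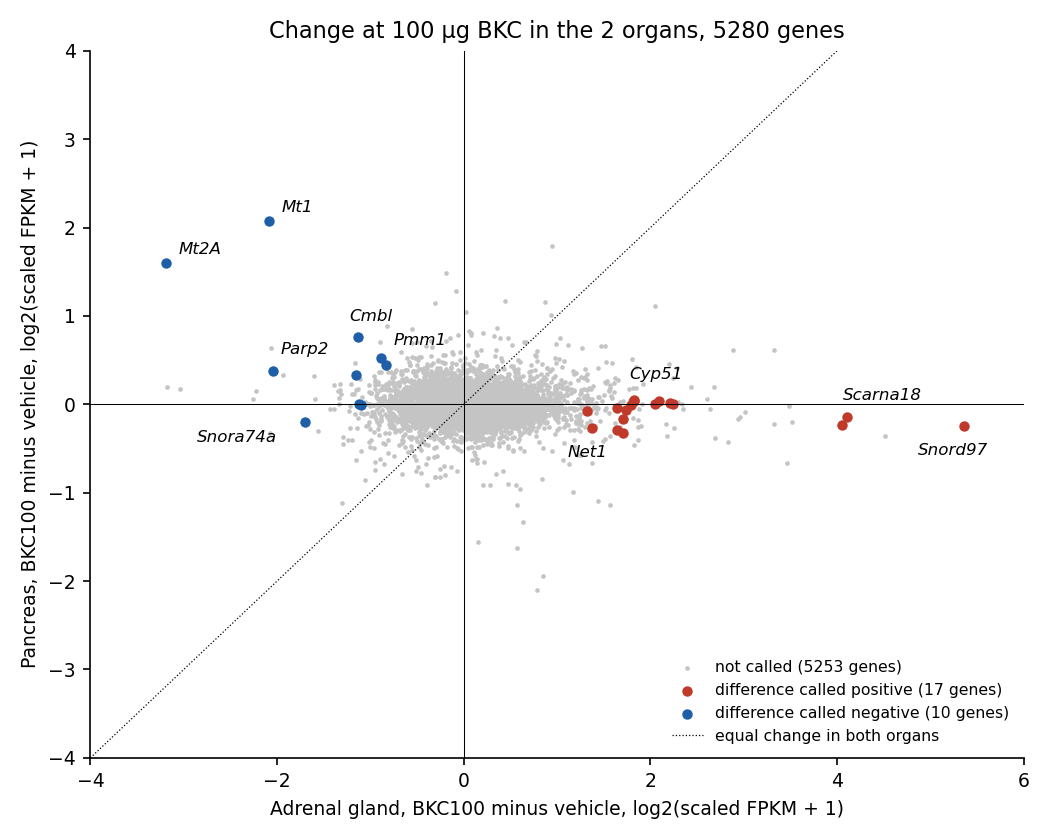
Change at 100 µg of BKC in adrenal gland (horizontal axis) and pancreas (vertical axis), both as BKC100 minus vehicle on the log2(scaled FPKM + 1) scale, for 5280 genes. Red dots are the 17 genes with a called positive difference, blue dots the 10 with a called negative one, and grey dots the rest. Mt2A and Mt1 lie apart in the upper left, with -3.19 and -2.08 in the adrenal gland and 1.60 and 2.08 in the pancreas, while the red dots lie along the horizontal axis.

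Mt2A had the most negative difference of the 27, and its levels moved in opposite directions in the organs. In the adrenal gland it stood at 253 and 144 scaled FPKM with vehicle and at 23.1 and 17.4 with BKC100. In the pancreas it stood at 1.63 and 1.04 with vehicle and at 5.35 and 6.77 with BKC100. Groups did not overlap in either organ, as held for 58.1% of all tested genes in the adrenal gland and 39.1% in the pancreas. The adrenal change was -3.19 (SE 0.28, adjusted p = 0.00247) and the pancreas value 1.60 (95% interval 0.95 to 2.26, adjusted p = 0.468). Their difference was -4.79 (SE 0.40, 95% interval -5.72 to -3.86, adjusted p = 0.0103, limma).

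Mt1 showed the same arrangement. Adrenal levels were 153 and 136 scaled FPKM with vehicle and 27.7 and 39.7 with BKC100, and pancreas levels were 2.39 and 5.25 with vehicle and 15.6 and 21.7 with BKC100. The adrenal change was -2.08 (adjusted p = 0.0122), the pancreas value 2.08 (95% interval 1.34 to 2.81, adjusted p = 0.433) and the difference -4.16 (SE 0.44, 95% interval -5.20 to -3.12, adjusted p = 0.0155, limma). With BKC100 the scaled FPKM of the 2 organs were thus closer than with vehicle for both genes. Every adrenal value still stayed above every pancreas value. Scaling was done within each organ, so levels of the 2 organs do not share a common scale. At 50 µg, in libraries of the first naming style, adrenal Mt2A was 217 and 262 and Mt1 220 and 228, within or above the range of vehicle. The heart difference between styles was 0.06 for Mt2A and -0.40 for Mt1.

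Both calls depended on single libraries. The adjusted p of the Mt2A difference rose to 0.0571 without pancreas BKC100 replicate 1 and to 0.0866 without replicate 2. For Mt1 it rose to 0.104 and 0.0578 without adrenal vehicle replicate 1 or 2, and to 0.0906 and 0.107 without pancreas BKC100 replicate 1 or 2. The differences themselves ranged from -5.19 to -4.39 for Mt2A and from -4.60 to -3.72 for Mt1 over the 8 fits that each left out 1 library. In the pancreas alone, Mt2A passed when the organs were given their own weights (adjusted p = 0.0432) and Mt1 passed without pancreas vehicle replicate 2 (adjusted p = 0.0407); both passed on unscaled values.

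**Figure D2:**
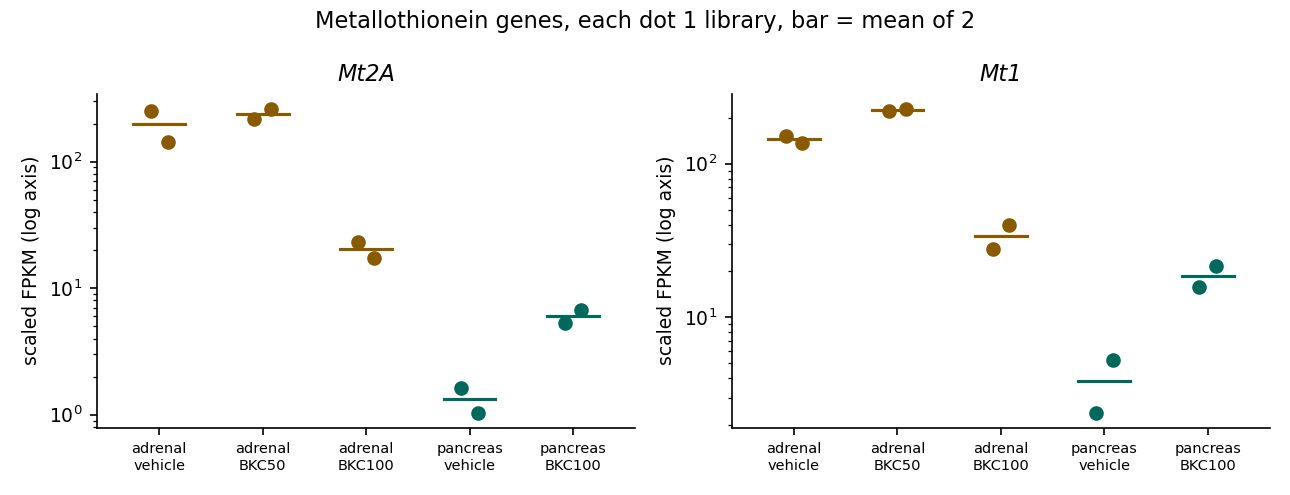
Scaled FPKM of Mt2A (left) and Mt1 (right) on a log axis in adrenal gland with vehicle, BKC50 and BKC100 and in pancreas with vehicle and BKC100. Dots are libraries and bars the mean of 2; the adrenal BKC100 dots lie at 17.4 to 39.7, below all adrenal vehicle and BKC50 dots, and the pancreas BKC100 dots at 5.35 to 21.7, above the pancreas vehicle dots.

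Other genes of zinc handling did not share this pattern at the threshold. Of 23 metallothionein and zinc transport genes listed 12 were tested, and Mt1 and Mt2A were the 2 called, against 0.511% of all genes. The list's median difference was -0.09, beside 0.04 over all genes. Slc30a1, the zinc exporter of the plasma membrane that MTF1 also controls, had a difference of -0.62 (95% interval -1.18 to -0.06, adjusted p = 0.196, limma). Slc39a14, an importer of zinc and iron, had 0.55 (95% interval -0.03 to 1.13, adjusted p = 0.25, limma).

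Of the other called negative differences, Cmbl, Pmm1 and Cd320 were lower with BKC100 in the adrenal gland and higher in the pancreas. Cmbl encodes a cytosolic hydrolase. It stood at 189 and 154 scaled FPKM in adrenal vehicle and at 82.2 and 72.5 in adrenal BKC100, and at 3.35 and 2.34 in pancreas vehicle and 5.27 and 5.61 in pancreas BKC100. The adrenal change was -1.14, the pancreas value 0.76 (95% interval 0.35 to 1.16) and the difference -1.89 (SE 0.25, adjusted p = 0.0209, limma). Pmm1, a phosphomannomutase, was 21.9 and 25.3 against 12.0 and 12.6 in the adrenal gland, and 1.62 and 1.63 against 2.88 and 2.69 in the pancreas. Its difference was -1.41 (SE 0.18, adjusted p = 0.0209, limma). Cd320, the receptor that takes up transcobalamin with vitamin B12, had an adrenal change of -0.83, a pancreas value of 0.44 and a difference of -1.27 (SE 0.20, adjusted p = 0.0448, limma). For these 3 genes the groups did not overlap in either organ (58.1% of all genes in the adrenal gland, 39.1% in the pancreas), and the pancreas change alone did not pass, with adjusted p of 0.776 for Cmbl, 0.84 for Pmm1 and 1 for Cd320.

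Poll, Laptm4b and Appbp2 completed the negative protein-coding calls apart from Parp2. Poll, a DNA polymerase of base excision and end-joining repair, fell from 12.8 and 11.6 to 5.32 and 4.55 scaled FPKM in the adrenal gland, with 1.57 and 1.97 against 2.48 and 2.46 in the pancreas and a difference of -1.49 (adjusted p = 0.0248, limma). Laptm4b, a lysosomal membrane protein, fell from 113 and 114 to 53.9 and 49.3 in the adrenal gland and was 7.95 and 7.80 against 8.08 and 7.71 in the pancreas. Its pancreas value of 0.00 had a 95% interval from -0.29 to 0.30, and its difference was -1.13 (adjusted p = 0.049, limma). Appbp2, which binds the amyloid precursor protein, was near 1 FPKM in the pancreas in all 4 libraries, with a difference of -1.09 (adjusted p = 0.049, limma).

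Parp2 cannot be read on its own. It encodes a poly(ADP-ribose) polymerase of DNA repair, and in assembly GRCr8 it overlaps Rpph1, the RNA of ribonuclease P. Its level was 676 and 501 scaled FPKM in adrenal vehicle, 153 and 128 in adrenal BKC100, 18.5 and 21.5 in pancreas vehicle and 27.98 and 24.5 in pancreas BKC100, with a difference of -2.42 (adjusted p = 0.0133, limma). Rpph1 stood at 105 to 120 times Parp2 in every adrenal library, BKC50 included, and at 122 to 134 times Parp2 in every pancreas library. Rpph1 itself had a difference of -2.27 (adjusted p = 0.0523, limma). In adrenal BKC50, both libraries of which carry the first style, Parp2 was 2585 and 609.

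Among the positive differences, Cyp51 was the call in the list of cholesterol synthesis and uptake. It encodes the lanosterol demethylase, and rose in the adrenal gland from 26.4 and 37.2 to 109 and 91.2 scaled FPKM, while the pancreas stood at 1.19 and 1.12 with vehicle and 1.01 and 1.19 with BKC100. The pancreas value was -0.04 (95% interval -0.45 to 0.37) and the difference 1.68 (SE 0.26, 95% interval 1.09 to 2.26, adjusted p = 0.0393, limma). Since its pancreas level was close to the pseudocount of 1, its fold there is understated. The call was lost in 5 of the 8 fits that left out 1 library: without adrenal vehicle replicate 1 and without each pancreas library, with adjusted p from 0.104 to 0.161 (limma). Of 25 genes listed 7 passed the filter in both organs. All 7 had a positive difference, with a median of 1.25 beside 0.04 over all genes. The call was 1 of 7, against 0.511% of all genes. In the adrenal gland 4 of 7 rose (9.2% of all genes): Cyp51, Fdps, Srebf2 and Insig1.

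Fdps, the farnesyl diphosphate synthase, stood at 36.1 and 48.8 against 95.01 and 108 scaled FPKM in the adrenal gland and at 4.27 and 4.12 against 3.97 and 4.41 in the pancreas. Its difference was 1.25 (95% interval 0.71 to 1.80, adjusted p = 0.0534, limma). Srebf2, the transcription factor of the pathway, had a difference of 1.18 (adjusted p = 0.0862, limma), and Insig1, which holds that factor back in the endoplasmic reticulum, one of 1.29 (adjusted p = 0.14, limma). The list's median was 0.73 for adrenal BKC50 minus vehicle, and -0.26 for the heart difference between styles.

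Net1, Ano6, Meis2 and Hipk2 rose in the adrenal gland with pancreas intervals that included 0. Net1, an exchange factor of the GTPase RhoA, was 25.5 and 27.5 against 73.0 and 67.9 scaled FPKM in the adrenal gland and 2.22 and 2.33 against 1.68 and 1.77 in the pancreas. Its difference was 1.64 (SE 0.18, adjusted p = 0.0103, limma). Ano6, a phospholipid scramblase, had a difference of 2.03 (SE 0.32, adjusted p = 0.042, limma), with 5.30 and 9.10 against 22.5 and 27.9 in the adrenal gland. Meis2, a homeobox transcription factor, had 1.80 (SE 0.28, adjusted p = 0.042, limma), and Hipk2, a nuclear kinase, 1.39 (SE 0.23, adjusted p = 0.049, limma). Adrenal BKC50 minus vehicle, with the same vehicle libraries, was 0.90, 0.64, 0.88 and 0.50 in the order named, and their heart differences between styles were 0.19, 0.27, -0.11 and 0.33.

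**Figure D3:**
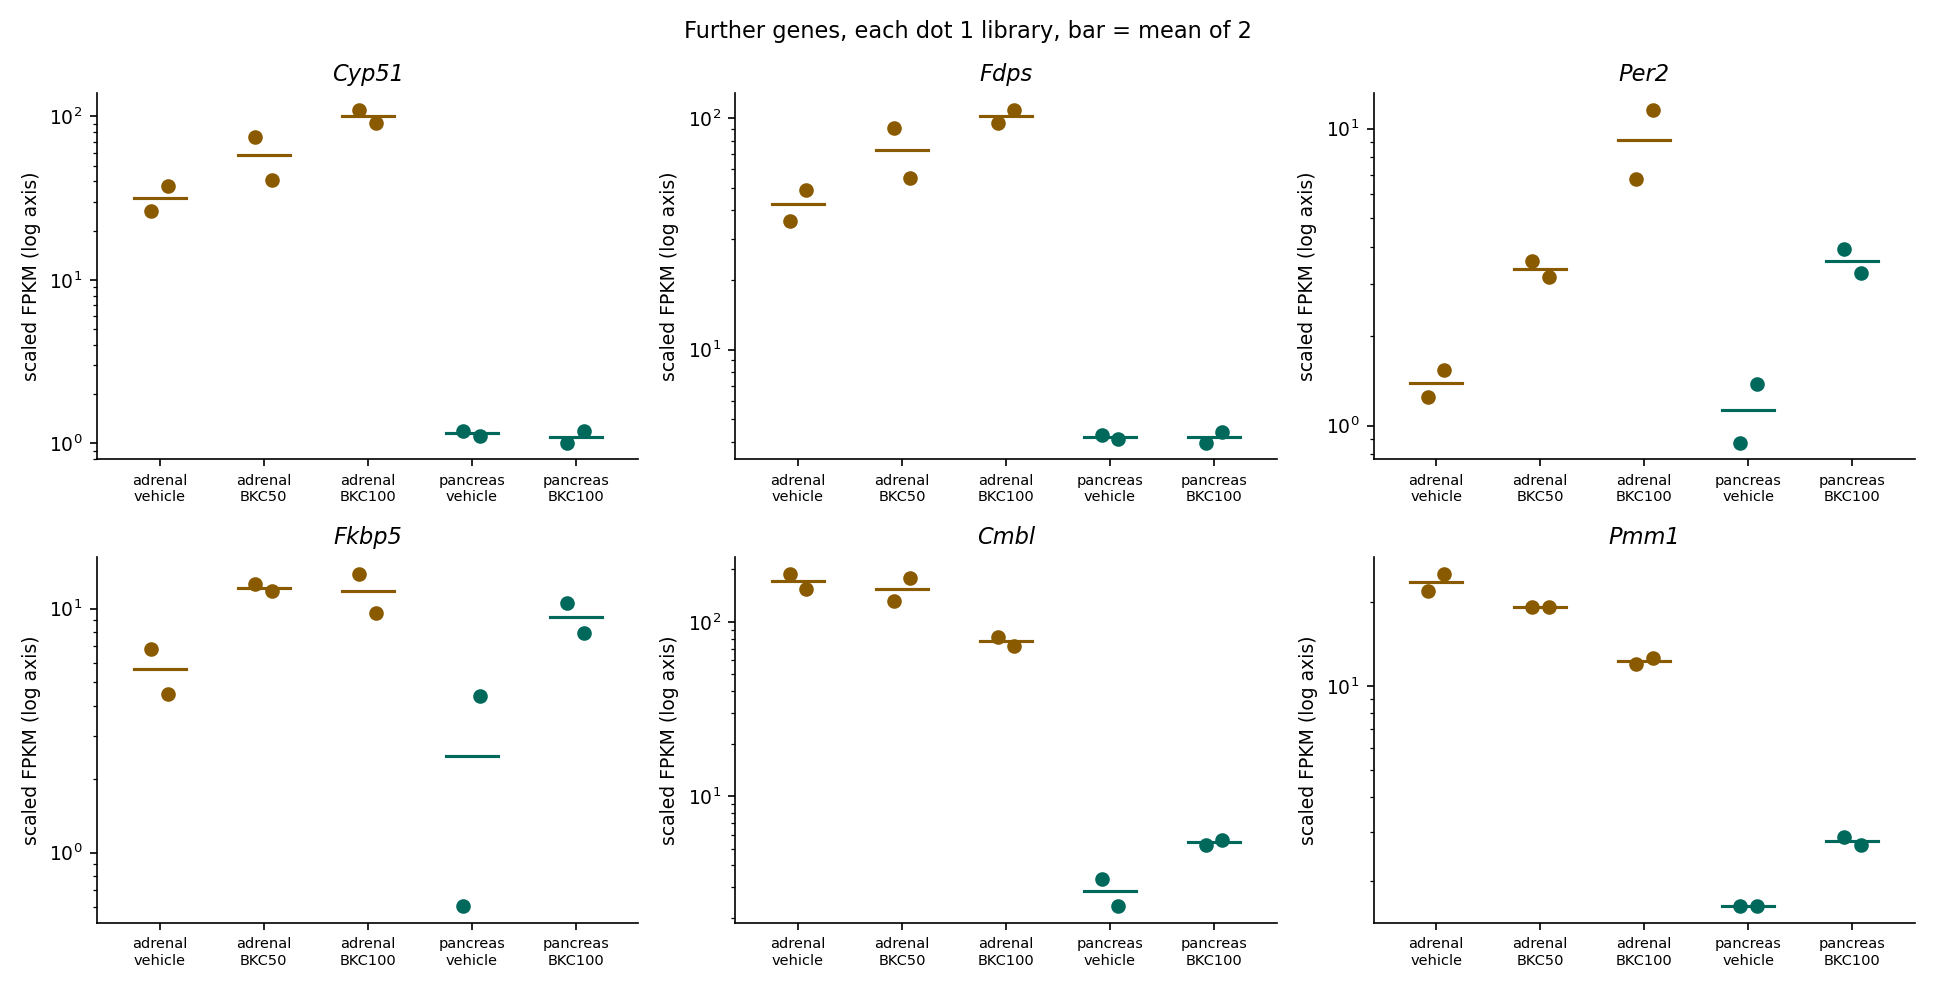
Scaled FPKM of Cyp51, Fdps, Per2, Fkbp5, Cmbl and Pmm1 on log axes, in the same 5 groups, with dots for libraries and bars for the mean of 2. Cyp51 and Fdps are higher with BKC100 in the adrenal gland and close to the vehicle dots in the pancreas, Per2 and Fkbp5 have higher means with BKC100 in both organs, and Cmbl and Pmm1 are lower in the adrenal gland and higher in the pancreas.

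A further 6 of the 17 positive calls were copies of ribosomal protein or elongation factor genes: Rps23l1, Rps20l4, Rpl36l3, Rps23-ps2, Eef1a1-ps12 and Eef1a1-ps15. Reads of such copies can be shared with their parent genes, so their levels are uncertain. Rps23l1 stood at 2.05 and 1.76 scaled FPKM in adrenal vehicle and at 13.9 and 11.5 in adrenal BKC100, and at 3.10, 2.68, 3.34 and 2.52 in the pancreas libraries, with a difference of 2.23 (adjusted p = 0.0103, limma). Rps20l4 had 2.05 (adjusted p = 0.0155, limma) and Rpl36l3 1.94 (adjusted p = 0.0345, limma). Differences were 2.19 for Eef1a1-ps15, 1.80 for Eef1a1-ps12 and 1.77 for Rps23-ps2. Rps20l4 and Rps23-ps2 had adrenal vehicle means of 0.673 and 0.645 and passed the filter through adrenal BKC100.

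The parent genes did not move with them. Rps23 had a difference of -0.47, Rps20 of -0.64, Rpl36 of -0.51 and Eef1a1 of -0.35, none of them called. Over 77 cytosolic ribosomal protein genes, all tested, the median difference was -0.34, with 74 of 77 negative and 0 called. Over the 61 tested symbols of ribosomal-like genes and pseudogenes the median difference was 0.58. Of these 6 were called positive and 0 negative, beside 0.322% and 0.189% of all genes. The heart difference between styles had the same signs, with a median of -0.38 for the ribosomal proteins and 0.31 for the copies. Its part in the result was not tested. Adrenal BKC50 minus vehicle, within the first style, had medians of 0.16 for the ribosomal proteins and 0.28 for the copies.

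Small RNAs held the 3 most positive of the called differences. Snord97, a box C/D small nucleolar RNA that lies within Eif4g2, stood at 14.2 and 6.39 scaled FPKM in adrenal vehicle and at 563 and 336 in adrenal BKC100, against 98.3 and 128 in pancreas vehicle and 71.7 and 125 in pancreas BKC100. Its difference was 5.61 (SE 0.64, adjusted p = 0.0303, limma), while that of the host gene Eif4g2 was 0.80 (adjusted p = 0.129, limma). In these values, which were scaled within each organ and do not share a common scale, adrenal vehicle was below the pancreas and adrenal BKC100 above it. Scarna18, a Cajal body RNA, had 4.25 (SE 0.41, adjusted p = 0.0103, limma), and LOC120095776, which lies within Fbxo45, had 4.29 (SE 0.40, adjusted p = 0.0103, limma).

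Snora74a, a box H/ACA small nucleolar RNA within Matr3, went the other way: it fell from 261 and 254 to 82.7 and 74.3 in the adrenal gland and had a difference of -1.51 (adjusted p = 0.0248, limma), with 0.05 for Matr3. The remaining positive calls were LOC120098116, which overlaps Scarna18, with 1.87, LOC100909911 with 2.05 and LOC100361259 with 1.79. LOC120095776 and LOC100909911 had adrenal vehicle means of 0.539 and 0.783 scaled FPKM and passed the filter through adrenal BKC100. By class, the median difference was 1.38 over 40 tested small nuclear RNAs and 0.45 over 104 small nucleolar RNAs, beside 0.03 over 5047 protein-coding genes. The heart difference between styles had medians of 1.498 and 0.61 for those RNA classes. Adrenal BKC50 minus vehicle, within the first style, had medians of 1.19 and 0.19 for them, beside 0.05 over protein-coding genes. Most such RNAs lack long poly(A) tails, and the libraries were made with an mRNA kit.

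For the 27 called genes together, the sign of the heart difference between styles was that of the called difference in 22, in 15 of the 17 positive and 7 of the 10 negative ones. Its median was 1.21 for the positive and -0.32 for the negative calls, beside -0.01 over all genes. Across 5280 genes it correlated with the adrenal change at a Pearson r of 0.40 and with the pancreas change at -0.08. Its part in the differences was not tested. Adrenal BKC50 minus vehicle, within the first style and with the same vehicle libraries, had the sign of the called difference in 22 of the 27. These were 17 of the 17 positive and 5 of the 10 negative ones. Shared vehicle libraries move both changes the same way, so equal signs were favoured in genes selected by the BKC100 change. The heart value lay between -0.44 and 0.33 for Mt2A, Mt1, Cmbl, Pmm1, Cd320, Laptm4b, Appbp2, Cyp51, Net1, Ano6, Meis2 and Hipk2. Among these genes, its sign was that of the difference in all but Mt2A, Appbp2, Cyp51 and Meis2. The heart value was -0.61 for Poll, -0.57 for Parp2, 1.47 for Rps23l1, 1.21 for Rps20l4 and 1.57 for Rpl36l3, each also of the same sign as the difference.

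**Figure D4:**
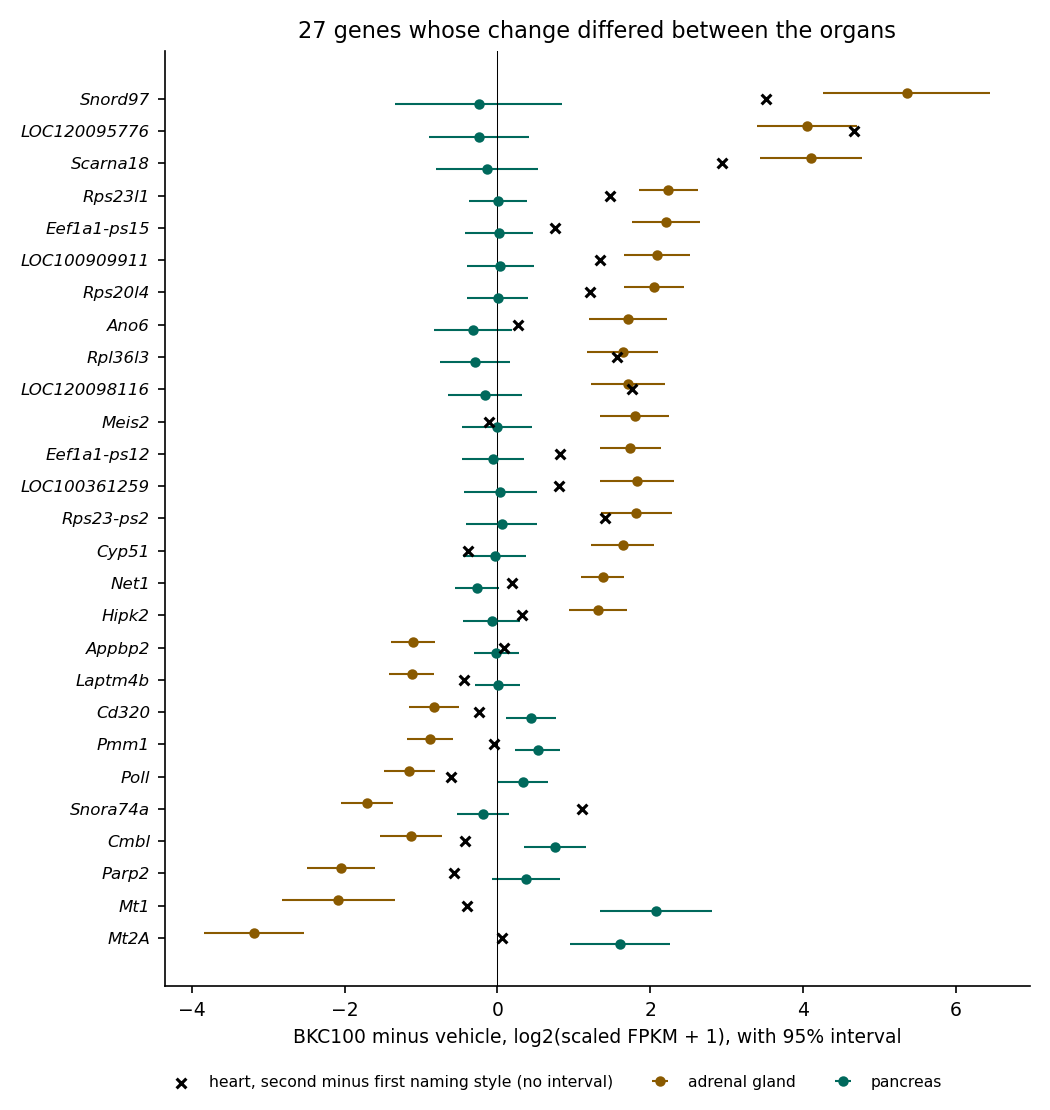
BKC100 minus vehicle on the log2(scaled FPKM + 1) scale in adrenal gland (brown) and pancreas (green) for the 27 genes with a called difference, ordered by the difference; dots are the limma estimates and lines their 95% intervals. Crosses are heart second-style minus first-style differences, which have no interval; they lie at 2.95 to 4.67 for the 3 most positive genes and at 0.06 for Mt2A.

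Circadian clock genes had similar changes in both organs. Their median was 0.48 in the adrenal gland and 0.54 in the pancreas over 13 of 19 listed genes tested, beside 0.04 and 0.00 over all genes, and 0 of 13 differences were called. Per2, a repressor of the clock that also responds to glucocorticoids, rose in the adrenal gland from 1.25 and 1.54 to 6.76 and 11.5 scaled FPKM (2.05, adjusted p = 0.00468, limma). In the pancreas it stood at 0.876 and 1.38 with vehicle and at 3.92 and 3.27 with BKC100, a value of 1.12 (95% interval 0.56 to 1.68, adjusted p = 0.632, limma). The difference of 0.93 had a 95% interval from 0.14 to 1.72 (adjusted p = 0.178, limma). Bhlhe40, another clock repressor, had 0.78 in the adrenal gland, where it rose, and 0.60 in the pancreas, and a difference of 0.18 (95% interval -0.45 to 0.82). The light cycle was the same for all rats per the labels, and the sources used here do not give the hour of killing.

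Glucocorticoid-responsive genes did not move alike. Of 25 listed 19 were tested, and the 2 called, against 0.511% of all genes, were Mt1 and Mt2A, which also stand in the zinc list. The median difference was -0.56 beside 0.04 over all genes, with -0.23 in the adrenal gland and 0.28 in the pancreas. In the adrenal gland 2 of 19 rose and 5 fell, beside 9.2% and 5.66% of all genes. Fkbp5, a co-chaperone of the glucocorticoid receptor, was 6.85 and 4.46 against 13.9 and 9.63 scaled FPKM in the adrenal gland and 0.603 and 4.38 against 10.5 and 7.94 in the pancreas. Its difference was -0.84 (95% interval -2.998 to 1.31), wide because the pancreas vehicle libraries lay far apart. Zbtb16, a zinc finger repressor, had 1.03 in the adrenal gland, where it rose, and 0.75 in the pancreas, with a difference of 0.29 (95% interval -0.43 to 1.00). Dusp1, a phosphatase of MAP kinases, fell in the adrenal gland (-2.07, adjusted p = 0.0215, limma) and had -0.32 in the pancreas. Hsd11b1, which regenerates active glucocorticoid, had a difference of -0.89 (adjusted p = 0.108, limma), and Sult1a1, a sulfotransferase, one of -1.11 (adjusted p = 0.119, limma). Both fell in the adrenal gland, with -0.79 for Hsd11b1 and -0.99 for Sult1a1, while Klf9 rose there (0.78). Tsc22d3 had -0.81 in the adrenal gland, which did not pass, 0.43 in the pancreas and a difference of -1.24 (adjusted p = 0.142, limma).

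Of 30 fatty acid oxidation and PPAR target genes listed 22 were tested, and 0 differences were called; 18 were positive and the median was 0.46. In the adrenal gland 7 of 22 rose, 1 fell and 14 did not pass, beside 9.2% and 5.66% of all genes that rose and fell. The adrenal median was 0.39, and 0.06 on unscaled values. Cpt1a, which passes fatty acids into mitochondria, was 39.5 and 37.8 against 94.3 and 138 scaled FPKM in the adrenal gland and 7.58 and 6.02 against 9.49 and 7.33 in the pancreas, a difference of 1.27 (adjusted p = 0.0856, limma).

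Heat shock chaperones rose in the adrenal gland in 5 of 11 tested genes and fell in 1, beside 9.2% and 5.66% of all genes, with 0 called differences. Their medians were 0.45 in the adrenal gland, or 0.12 on unscaled values, and 0.01 in the pancreas. Hsph1 had a difference of 1.01 (adjusted p = 0.0791, limma). Hspa8, the constitutive cytosolic chaperone, was 632 and 591 against 1175 and 952 in the adrenal gland and 47.1 and 46.5 against 65.8 and 65.9 in the pancreas, changes of 0.79 and 0.48 with a difference of 0.31 (95% interval -0.25 to 0.86). Immediate early genes had a negative difference in 10 of 10 tested, with a median of -0.79 and 0 called. Jund, a component of the AP-1 factor, was 32.1 and 41.8 against 39.4 and 35.1 in the adrenal gland and 4.38 and 4.29 against 10.7 and 9.31 in the pancreas; its pancreas value was 1.04 (95% interval 0.67 to 1.41, adjusted p = 0.433, limma).

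**Figure D5:**
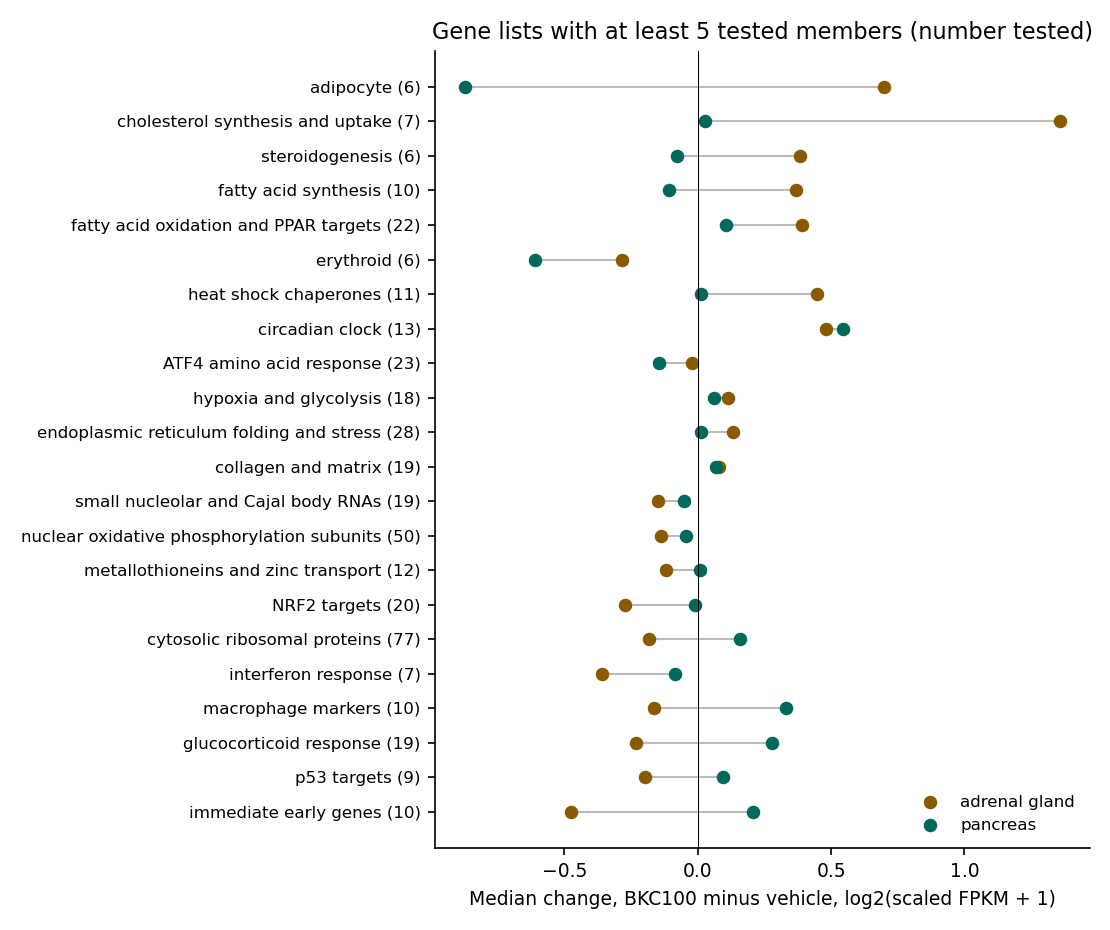
Median change at 100 µg of BKC over the tested members of each gene list in adrenal gland (brown) and pancreas (green), on the log2(scaled FPKM + 1) scale, for lists with at least 5 tested members (number in parentheses), ordered by median difference. Cholesterol synthesis stands at 1.36 in the adrenal gland and 0.03 in the pancreas, and the circadian clock at 0.48 and 0.54.

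Markers of other cells moved with the comparison in several libraries. Adipocyte genes had a positive difference in 6 of 6 tested of 18 listed, with a median of 1.53, 0.70 in the adrenal gland and -0.87 in the pancreas, and 0 called. The summed level of the 18 genes was 410 and 478 in adrenal vehicle, 386 and 1092 in adrenal BKC100, 47.7 and 51.1 in pancreas vehicle and 30.5 and 29.6 in pancreas BKC100. Adipoq was 81.5 in adrenal BKC100 replicate 2 and 21.5 in replicate 1. In bulk tissue, fewer cells of a type and less RNA per cell cannot be told apart.

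Macrophage markers had a negative difference in 9 of 10 tested of 20 listed, with a median of -0.52 and 0 called; their sum was 473 and 418 against 372 and 382 in the adrenal gland and 30.7 and 25.9 against 35.4 and 33.9 in the pancreas. Pancreas libraries also differed in islet and blood content. Ins2 ranged from 27.96 in vehicle replicate 2 to 167 in BKC100 replicate 1, and its difference was -0.28 (95% interval -3.07 to 2.51). Hba-a1 was 76.0 and 10.4 in pancreas vehicle and 32.5 and 9.93 in pancreas BKC100. Summed acinar genes varied little in the pancreas, from 213229 to 238439. The part of these cells in the differences was not tested.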

How the data were processed

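mRNA libraries were made with a stranded kit, from samples with an RNA integrity above 9, per the labels' protocols. The values deposited by the authors were read as FPKM. Their unit was inferred, since they were not whole and their sums differed between libraries. Per the submitters' processing notes, StringTie 2.1.3b, HISAT2 2.1.0 and edgeR 3.40.2 were used, with no role named. The authors' genome build is not given in the sources used here. Each of the 45777 symbols matched the RefSeq table of GRCr8, used for gene classes, neighbours and promoters.

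FPKM were scaled within each organ by median-ratio factors. Genes with a mean of at least 1 in both organs were tested with limma 3.58.1 in R 4.3.3 on log2(scaled FPKM + 1), with 4 group means over 8 libraries, a mean-variance trend and robust shrinkage. This scale understates changes of low genes. P-values were Benjamini-Hochberg adjusted over 5280 genes, and calls made at 0.05. Levels are scaled FPKM and changes log2 values. The scripts were tested on simulated data. Only the limma intervals express precision, since depth is unknown and no counting interval was computed.

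The comparison, genes and lists were chosen with earlier results of these data known. Named genes were the 10 largest called differences in each direction with the 4 library-pair changes of each organ apart, a mean log2 value of at least 1 in both organs and no placeholder symbol, up to 4 members of lists with at least 2 calls, and fixed marker genes. The other called genes and other list members were named after their values were seen. Alternatives covered the pseudocount, filter, scaling, replicate block, library weights, shrinkage and each library left out. Adrenal BKC50 levels used the adrenal factors; heart libraries served only for the naming-style values. Some list members are not reported here.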

Additional observations from a re-analysis of the deposited data

Results flagged for a closer look

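The 27 genes whose change at 100 µg of BKC differed between adrenal gland and pancreas, by the limma test of the difference itself, are listed with that difference on the log2 scale, adrenal gland minus pancreas. Differences were negative for Mt2A (-4.79), Mt1 (-4.16), Parp2 (-2.42), Cmbl (-1.89), Snora74a (-1.51), Poll (-1.49), Pmm1 (-1.41), Cd320 (-1.27), Laptm4b (-1.13) and Appbp2 (-1.09). Differences were positive for the protein-coding genes Ano6 (2.03), Meis2 (1.80), Cyp51 (1.68), Net1 (1.64) and Hipk2 (1.39), for the ribosomal and elongation factor copies Rps23l1 (2.23), Eef1a1-ps15 (2.19), Rps20l4 (2.05), Rpl36l3 (1.94), Eef1a1-ps12 (1.80) and Rps23-ps2 (1.77), and for Snord97 (5.61), LOC120095776 (4.29), Scarna18 (4.25), LOC100909911 (2.05), LOC120098116 (1.87) and LOC100361259 (1.79). In 19 of the 27 genes the change had opposite signs in the organs, beside 51.0% of all tested genes. The 27 were selected by their difference, which itself favours opposite signs, and in 12 the pancreas change was smaller than 0.1. The 4 library-pair changes of the adrenal gland lay apart from the 4 of the pancreas in all 27 genes, as they did in 40.5% of all tested genes. Groups of 2 libraries were too small for a search for outlying libraries.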

How the results depend on the processing

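The 27 called differences became 46 with a pseudocount of 0.1, 0 with no filter on low values (4219 at an unadjusted p under 0.05, over all genes, limma), 7 with a mean FPKM of at least 5 in both organs, 212 on FPKM as deposited (83 positive, 129 negative), 49 with quantile normalization, 51 with protein-coding genes at equal sums, 59 with organ-specific weights, 16 without robust shrinkage and 49 over protein-coding genes only, the last chosen after seeing the data. Unscaled values moved the median difference of all genes to -0.21, with -0.27 in the adrenal gland and -0.06 in the pancreas, and turned the sign of the median difference for the endoplasmic reticulum, ATF4, hypoxia, collagen, pancreatic duct and endothelial lists. With the weights, 26 of the 27 genes kept their call. The 785 adrenal calls became 189 with a size of at least 1 required, 401 with the smaller pseudocount, 1728 with no filter, 69 with the stricter filter and 156 with the weights; unscaled they were 1069, of which 212 rose and 857 fell. The pancreas gave 0 calls except for 5 unscaled (Mt1, Mt2A, Fkbp5, Car3 and Gga1) and 5 with the weights (Mt2A, Jund, Cap1, Prune2 and Ctdspl).

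Leaving out 1 library gave 1 to 542 differences, 71 to 1136 adrenal calls and 0 to 3 pancreas calls. Differences numbered 8 without adrenal vehicle replicate 1, 56 and 542 without adrenal BKC100 replicate 1 or 2, 4 and 7 without pancreas vehicle replicate 1 or 2, and 1 without either pancreas BKC100 library, where LOC120095776 was the gene kept. All 27 genes kept their call without adrenal BKC100 replicate 2. The Ins2 difference ranged from -1.44 to 0.88 over these fits and turned positive without pancreas vehicle replicate 2. The cause of these shifts was not tested. In such fits the lone library of a group is assumed to vary like the others. Depth is unknown, so what it limits could not be computed.

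Same-numbered libraries of vehicle and BKC100 deviated together at a correlation of -0.06 in the adrenal gland and 0.38 in the pancreas, and the BKC100 libraries of the 2 organs at 0.01, so the numbers were not shown to pair libraries. With the replicate number as a block there were 18 called differences, 17 of them among the 27, with 665 adrenal and 0 pancreas calls. Among the 10 calls lost were Cyp51 (adjusted p = 0.0736, limma), Meis2 (0.0623) and Hipk2 (0.0577).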

Other observations

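Several genes had pancreas changes with intervals apart from 0, although 0 genes passed in the pancreas by the limma fit reported. Such an interval is not adjusted for the number of genes, and 154 of 5280 genes had an unadjusted limma p under 0.05 in the pancreas. Prune2 stood at 13.3 and 11.8 scaled FPKM in pancreas vehicle and at 6.01 and 6.40 in pancreas BKC100, with 12.2, 16.4, 16.95 and 16.1 in the adrenal libraries; its difference was 1.12 (adjusted p = 0.0632, limma). Igfbp4, a binding protein of insulin-like growth factors, was 11.9 and 11.4 against 5.52 and 7.03 in the pancreas, with a pancreas value of -0.80 (95% interval -1.17 to -0.44, adjusted p = 0.541, limma). Ctdspl, a phosphatase, was 1.42 and 1.80 against 3.65 and 3.62, with 0.83 (95% interval 0.49 to 1.17, adjusted p = 0.433, limma). Car3, a carbonic anhydrase abundant in fat, was 6.12 and 7.23 against 1.34 and 1.65 in the pancreas, beside the lower adipocyte sum there. Its adrenal change was 0.57, and it was 1.28 without adrenal BKC100 replicate 1 and -0.15 without replicate 2. These genes were chosen after their values were seen.

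Some genes just missed the threshold for the difference. Slc7a1, an importer of arginine and lysine, rose in the adrenal gland from 8.69 and 10.7 to 20.6 and 26.01 scaled FPKM and was 2.47 and 2.66 against 2.61 and 2.35 in the pancreas, with a difference of 1.22 (adjusted p = 0.0523, limma). Krt8, a keratin of epithelial cells, fell in the adrenal gland from 6.24 and 8.23 to 1.45 and 2.01 and had a difference of -1.65 (adjusted p = 0.0523, limma). Of the steroid synthesis genes 6 of 29 were expressed enough in both organs to be tested. In the adrenal gland 1 rose, 1 fell and 4 did not pass, beside 9.2% and 5.66% of all genes that rose and fell. Fdx1, the electron donor of the mitochondrial steroid enzymes, rose in the adrenal gland from 1109 and 1632 to 4363 and 2522 and had a difference of 1.56 (adjusted p = 0.111, limma). Cyb5a, a cytochrome that passes electrons to steroid enzymes, fell in the adrenal gland (-0.61, adjusted p = 0.0401, limma). Rn7sl1, the RNA of the signal recognition particle, had a difference of -2.71 (adjusted p = 0.0523, limma) and made up 27.03% and 33.0% of summed FPKM in adrenal vehicle, 10.3% and 9.5% in adrenal BKC100 and 14.5% to 23.6% in the pancreas.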
